A study of Drosophila melanogaster with 6 samples.

Results

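Long noncoding RNA genes that lay near reproducible binding peaks of Eyeless (Ey) or Suppressor of Hairless (Su(H)) were described in DamID-seq data from optic lobes of *Drosophila* larvae. The members were the 250 of 1359 gene names in the study's lists of bound genes that begin with lncRNA:, asRNA: or CR and digits. The members were thus chosen by the presence of a reproducible peak near the gene, measured in the libraries analysed here, and their counts and scores are a description with no test. Of the 250 names, 249 were matched to a gene of the Ensembl annotation of Release 6 (dm6), 245 by symbol and 4 by a synonym, and 1 (CR45557) was left unmatched. The matched genes were 243 noncoding RNA genes (211 with the prefix lncRNA: and 32 with asRNA:), 5 pseudogenes and 1 gene (CR42848, now CG46304) that is annotated as protein coding.

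In DamID the bacterial methylase Dam is fused to a transcription factor and methylates GATC sites close to where the factor sits, so a peak resolves binding to the fragments between GATC sites and not to a base. There were 6 libraries, 2 of each group: larvae with SoxN-Gal4 over UAS-Ey-Dam, with SoxN-Gal4 over UAS-Su(H)-Dam, and with SoxN-Gal4 over UAS-Dam, the unfused methylase that serves as control. All groups also carried UAS-Dcr2 and, over the balancer CyO, tubG80ts, a temperature-sensitive Gal80 that holds Gal4 off at 18 C. SoxN-Gal4 is active in neuroblasts of the medulla. The regime was the same in all groups. Parents mated at 25 C, eggs of an 8 h window were kept at 18 C for 3 days, and larvae then spent 72 h at 29 C before climbing larvae of the last stage were dissected. Each library held the optic lobes of around 100 pooled brains, the labels name no sex, and the peak lists hold no marker by which the cell type could be checked. The deposited peak lists compare each fusion library with Dam alone, and they give neither read depth nor which Dam library was set against which fusion library.

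Long noncoding RNA genes are transcribed but code for no known protein, and many lie between, opposite to or inside protein-coding genes. Some are the long primary transcripts from which microRNAs are cut. Ey is the fly Pax6 protein and a temporal factor of medulla neuroblasts, and Su(H) is the DNA-binding protein through which the Notch receptor switches on targets such as the E(spl) genes.

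Among the matched genes, 197 of 249 had a reproducible Ey peak within 1000 bp, against 5.54% of all 18164 annotated genes. A reproducible Su(H) peak lay within 1000 bp of 176 of 249, against 5.46% of all genes. Peaks of both factors were near 124, against 3.33% of all genes. Peaks of Ey only were near 73, against 2.21%, and of Su(H) only near 52, against 2.14%. Since the peaks chose these genes, nothing is read from the distance to the background. In 122 of the 124 the Ey and the Su(H) peak overlapped each other.

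The classes built here departed from the study's lists in 4 genes. CR43643, CR44764 and CR45224 stood in the list for Ey alone but had reproducible peaks of Su(H) alone, and CR44363 stood in the list for Su(H) alone but had Ey peaks alone. CR43334 and CR43650 were each named in 2 lists, and both had peaks of both factors. The closest cases at the limit of 1000 bp were CR44773 and CR44586, whose nearest Ey peaks were 977 and 970 bp away, against 1041 bp for both lncRNA:CR43475 and asRNA:CR43948 just outside. For Su(H) they were CR44749 and CR45889 at 980 and 949 bp, against 1008 bp for asRNA:CR46067 and 1052 bp for lncRNA:CR44091.

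The list of each library holds peaks called at an FDR of 0.01 and gives a score on the scale of the log2 ratio of fusion over Dam alone. A peak at FDR 0.01 lay within 1000 bp of 181 members in Ey-Dam replicate 1, 193 in Ey-Dam replicate 2, 180 in Su(H)-Dam replicate 1 and 184 in Su(H)-Dam replicate 2. In both Ey replicates this held for 167 of 249, against 6.3% of all genes, in both Su(H) replicates for 166, against 6.8%, and in all 4 lists for 128, against 4.45%. These lists share their libraries with the reproducible peaks and are no independent check. For 12 members none of the 4 lists had a peak within that distance, while reproducible peaks were drawn from calls at the weaker FDR of 0.1. Absence from a list here means no peak within 1000 bp of the gene, and a peak may stand just beyond. Of these 12, only 1 had a peak at FDR 0.01 of the same factor over one of its reproducible peaks. The best scores of members ran from 3.67 to 7.89 in Ey-Dam replicate 1, 3.12 to 7.58 in Ey-Dam replicate 2, 2.42 to 5.41 in Su(H)-Dam replicate 1 and 1.88 to 5.28 in Su(H)-Dam replicate 2. Each list has its own scale, so a score is read against the other peaks of its list, and scores below are given with replicate 1 before replicate 2. A member's score in a list is that of its best peak there, so its scores can come from different peaks.

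**Figure D1:**
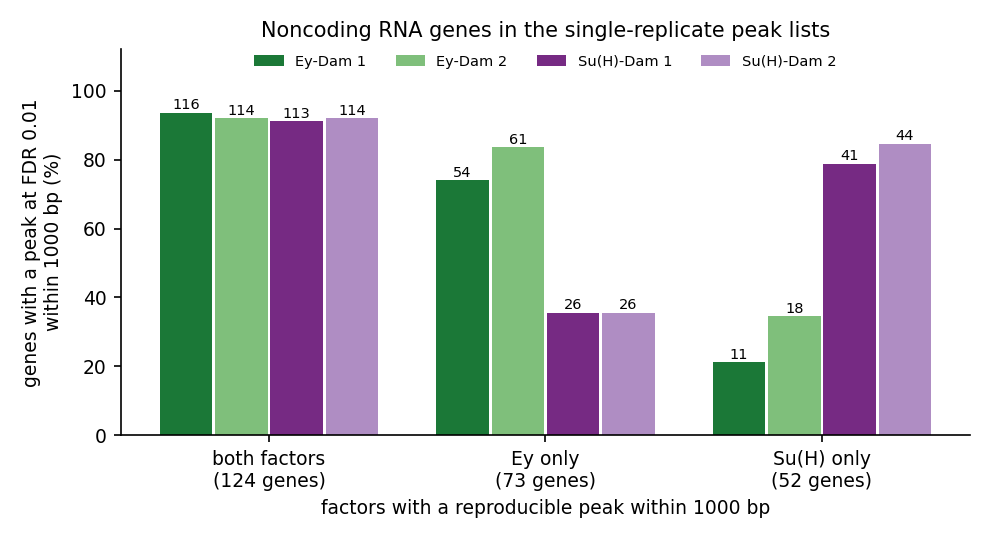
Share of members (y axis, percent) with a peak at FDR 0.01 within 1000 bp in each of the 4 fusion libraries, for the 124 members with reproducible peaks of both factors, the 73 with Ey only and the 52 with Su(H) only. Numbers over the bars are genes. In the Ey only class 26 genes had a peak in each Su(H)-Dam library, and in the Su(H) only class 11 and 18 genes had one in the Ey-Dam libraries.

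The single-factor classes were less separate in the lists of single libraries. Of the 73 members with Ey only, 41 had no Su(H) peak at FDR 0.01 in either Su(H)-Dam replicate, 12 had one in 1 replicate and 20 had one in both. Of the 52 members with Su(H) only, 32 had no Ey peak at FDR 0.01 in either Ey-Dam replicate, 11 had one in 1 replicate and 9 had one in both. Whether a member with Ey only differs from one with both factors in Su(H) binding was not tested.

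Members shared peaks, so they are not independent. The 197 members with Ey stood near 190 distinct reproducible Ey peaks of 984, and the 176 with Su(H) near 176 of 972. Up to 5 members stood at 1 Ey peak and up to 4 at 1 Su(H) peak, and 28 Ey and 24 Su(H) peaks were near 2 or more members. Most members had a single peak of a factor: 179 of 197 for Ey and 159 of 176 for Su(H).

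Scores of these peaks were close to those of the remaining reproducible peaks. The median Ey score was 5.56 near members and 5.51 elsewhere in replicate 1, and 4.86 near members and 4.90 elsewhere in replicate 2. For Su(H) it was 3.58 near members and 3.56 elsewhere in replicate 1, and 3.37 near members and 3.32 elsewhere in replicate 2. The median peak length was 2225 bp near members against 1823 bp elsewhere for Ey, and 1696 bp near members against 1521 bp elsewhere for Su(H). The part of peak length in the choice of members was not tested.

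Over the 141 Su(H) peaks near members that overlapped a peak in both replicate lists, Spearman's rho between replicates was 0.759, against 0.647 over 646 other peaks. Over the 158 Ey peaks near members it was 0.250, against 0.275 over 667 other peaks. These values are across peaks of the same libraries and carry no p.

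**Figure D2:**
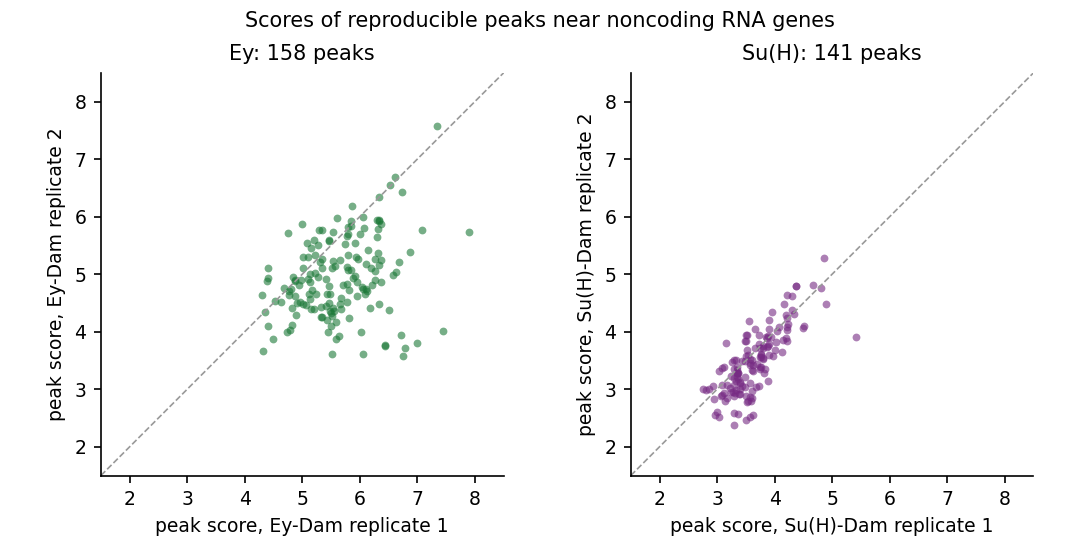
Scores in replicate 2 (y axis) against replicate 1 (x axis) of the reproducible Ey peaks (left, 158 peaks) and Su(H) peaks (right, 141 peaks) near members, each point 1 distinct peak and the dashed line equal scores. The Su(H) points follow the line, with rho 0.759. The Ey points scatter widely and lie mostly below the line, with higher scores in replicate 1 and rho 0.250.

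Members were short, with a median length of 747 bp (201 to 239347 bp), against 6183 bp for the 1058 protein-coding genes with a reproducible peak. The median over all 2447 lncRNA and asRNA genes was 720 bp. A reproducible peak of either factor covered the 5′ end of 130 members (52.2%), against 323 coding genes (30.5%). It held the whole gene in 78 members (31.3%), against 26 coding genes (2.46%), and touched the gene body in 172 members (69.1%), against 809 coding genes (76.5%). The part of gene length in these differences was not tested.

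**Figure D3:**
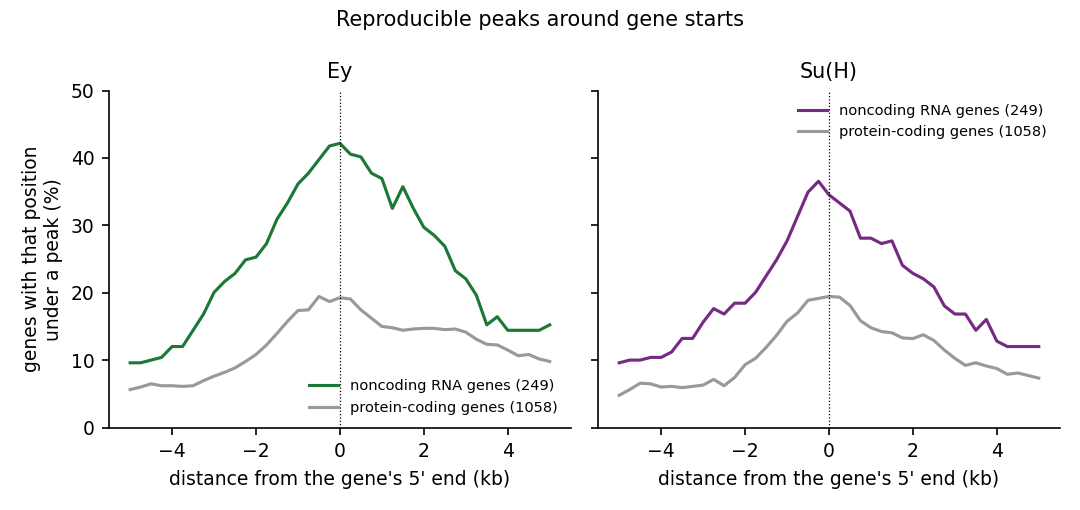
Share of genes (y axis, percent) whose position at a given distance from the 5′ end (x axis, kb, in the direction of transcription) lies under a reproducible Ey peak (left) or Su(H) peak (right), for the 249 members in colour and the 1058 bound coding genes in grey. At the 5′ end itself the share was 42.2% of members for Ey and 34.5% for Su(H), with the members' line above that of coding genes over the whole 5 kb on both sides.

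A coding gene was overlapped by 90 members: 43 ran opposite to it over an exon, 33 opposite to it inside introns, 7 on the same strand over an exon and 7 on the same strand in introns. The other 159 lay a median of 2475 bp from the nearest coding gene (9 to 45560 bp), 52 of them within 1000 bp and 45 beyond 5000 bp. Of these 159, 82 ran in the same direction as the neighbour, 51 were divergent and 26 convergent, and 15 were divergent with a neighbour within 1000 bp.

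For 92 members no coding gene lay within 1000 bp of any of their reproducible peaks, while 157 members shared their peaks with a total of 210 coding genes. A coding gene lay within 1000 bp of 118 of the 190 Ey peaks near members (62.1%), against 583 of 794 other Ey peaks (73.4%). For Su(H) it was 110 of 176 peaks near members (62.5%), against 593 of 796 others (74.5%). A peak counted as a member's can therefore be a neighbour's as well, and these lists cannot assign it to either. The shares near members and elsewhere are of unlike groups, since by the rule every peak near a member is near a gene. Among all reproducible peaks, 206 of 984 for Ey and 200 of 972 for Su(H) were near no gene, and all of these are among the others.

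Among members with both factors the highest mean percentile over the 4 lists, the percent of a list's peaks with a lower score, was 98.5 at CR46057. It lies like CR46056 inside an intron of E2f1, which codes for the transcription factor that drives entry into S phase. CR46057 (chr3R:21646301-21646603, plus strand) had Ey scores of 7.34 and 7.58, with Su(H) at 4.34 and 4.30, and its nearest reproducible peak was 331 bp away. CR46056 (chr3R:21638652-21639088, plus strand) had best Ey scores of 7.44 and 5.59, which came from different peaks beside the gene. The Ey peak over the whole gene scored 4.40 and 5.10, and the Su(H) peak over it 4.37 and 4.79. The score of 7.58 was the highest of all peaks in its list.

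CR46001 (chr3L:6104850-6105198, minus strand), in an intron of the ETS-domain gene Ets65A on the opposite strand, had Ey scores of 6.74 and 6.42, with Su(H) at 4.38 and 4.80. CR45388, which holds a microRNA described below, had Ey scores of 6.61 and 6.69, with Su(H) at 4.51 and 4.10. CR43621, 2925 bp from gcm, the glial fate determinant, had Ey scores of 6.53 and 5.59, with Su(H) at 4.89 and 4.48. The best scores of CR46001, CR45388 and CR43621 stood above the list medians in both replicates of both factors. Those medians were 5.14 and 4.42 in the Ey lists and 3.22 and 2.96 in the Su(H) lists. CR46001 and CR45388 were named for their high mean percentile over these lists, so for them this followed from the choice.

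In the Ey only class CR46200 (chr3L:901888-902396) had the highest score of its list, 7.89, in Ey-Dam replicate 1 and 5.73 in replicate 2. It also had Su(H) peaks at FDR 0.01 of 4.23 and 2.39, so 1 Su(H) library ranked it high and the other low. CR46215, 9306 bp from the proapoptotic gene skl, had 6.07 and 5.81 for Ey and no Su(H) peak in either replicate. CR43491, 18474 bp from B-H1, a Bar homeobox gene and medulla temporal factor, had 6.36 and 4.86 for Ey and a single Su(H) peak of 2.99 in replicate 2. CR44844, in an intron of beat-Ic, a member of the beaten path family of axon guidance genes, had 5.77 and 5.13 for Ey and no Su(H) peak.

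In the Su(H) only class CR45815 (chr3L:1648628-1649699, minus strand), antisense to CG13920, had 4.85 and 5.28 for Su(H), and 5.28 was the highest score in the list of Su(H)-Dam replicate 2. It had an Ey peak of 4.39 in Ey-Dam replicate 2 alone. CR43862, 3017 bp from run, which codes for the Runt transcription factor, had 5.41 and 3.91 for Su(H) and no Ey peak in either replicate. CR44596, 4767 bp from the POU gene nub, had 3.91 and 4.05 for Su(H) and no Ey peak.

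The E(spl) complex, a row of Notch target genes for bHLH repressors and Bearded-type proteins, held 6 members. CR45037 (chr3R:26001201-26002464, plus strand) lies 440 bp from E(spl)mgamma-HLH and had Ey scores of 6.30 and 5.65, with Su(H) at 4.31 and 4.62 from another peak. CR45038, 365 bp from E(spl)mbeta-HLH, had 5.06 and 4.95 for Ey from different peaks and took its Su(H) scores from the same peak as CR45037. CR45039, 479 bp from that gene, had Ey scores of 5.06 and 4.46, with Su(H) at 3.66 and 3.72.

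CR43644, divergent from E(spl)m3-HLH at 747 bp, had Ey scores of 6.06 and 4.75, with Su(H) at 4.16 and 4.48. CR43643 stood by the same Su(H) peak and had an Ey peak of 4.82 in Ey-Dam replicate 2, while in replicate 1 the nearest, of 6.06, was 1411 bp away. CR45040, which overlaps Kaz-m1, had best Ey scores of 3.77 and 4.82 at FDR 0.01, from different peaks. It had a Su(H) peak of 3.42 in Su(H)-Dam replicate 2 alone. It was nevertheless in the Su(H) only class, because its Ey peaks were not among the reproducible ones.

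**Figure D4:**
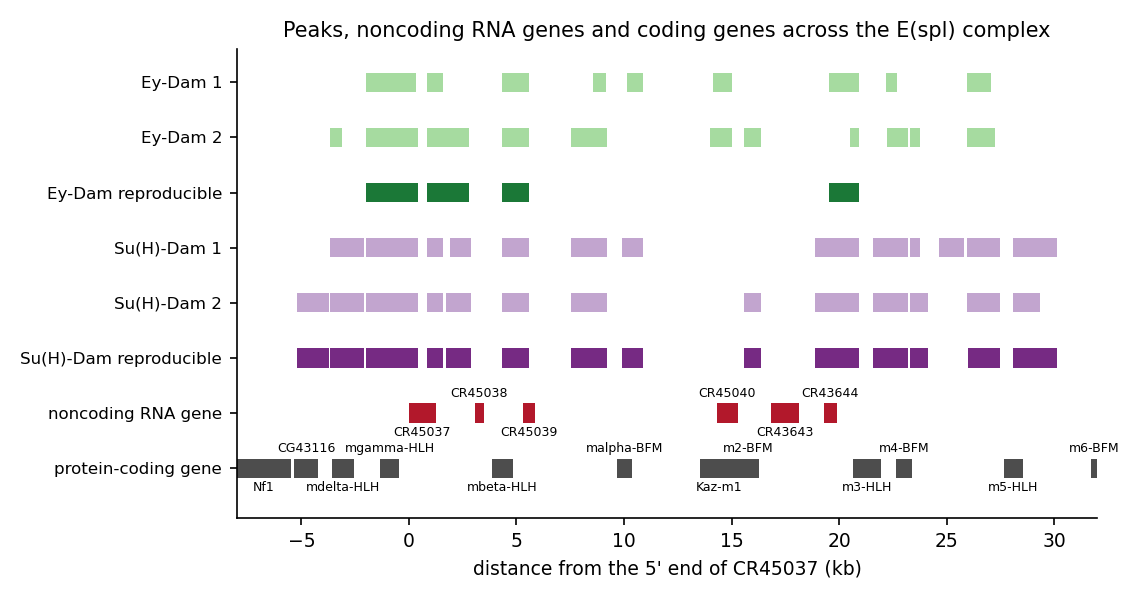
Map of 40 kb of the E(spl) complex: peaks at FDR 0.01 in each of the 4 libraries, reproducible peaks, the 6 members and the 12 coding genes, with the distance from the 5′ end of CR45037 on the x axis (kb). The window held 4 Ey and 14 Su(H) peaks in the reproducible lists, and each of the 4 Ey peaks overlaps one of Su(H).

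Su(H) sites were sought in the peaks as CGTGGGAA, TGTGGGAA, CGTGAGAA or TGTGAGAA on either strand. At least 1 was found in 68 of the 176 Su(H) peaks near members (38.6%), against 245 of 796 other Su(H) peaks (30.8%), with 0.274 sites per kb near members, 0.229 in other Su(H) peaks and 0.106 over the 6 chromosome arms. In the Ey peaks 58 of 190 near members (30.5%) and 178 of 794 others (22.4%) held one. Most Su(H) peaks near members, 108 of 176, held none of these letters, which says nothing of binding there.

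In some Notch target genes 2 such sites face each other at a set distance, an arrangement known as paired Su(H) sites. Pairs of facing forms with 15 to 17 bases between them, an arrangement sought after the windows around single sites were seen, occurred 8 times over the 6 arms, and 7 of these were in reproducible Su(H) peaks. The peaks near members held 3 of them (3 of 176 peaks), against 4 in the other Su(H) peaks (4 of 796). All 3 near members are in the E(spl) complex, and so are 3 of the 4 in other peaks. Those near members are given in dm6, on the plus strand, with the sites in capitals and 17 bases between them. They are shown because they stand in the peaks with which CR45037, CR43643 and CR43644 were listed. Neither pair listed with CR45037 lies in that gene: the first is before its 5′ end and the second past its 3′ end.
CR45037, chr3R:25999547-25999599, 262 bp from E(spl)mgamma-HLH: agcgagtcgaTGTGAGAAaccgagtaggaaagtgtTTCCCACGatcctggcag
CR45037, chr3R:26002603-26002655, 1428 bp past its 5′ end: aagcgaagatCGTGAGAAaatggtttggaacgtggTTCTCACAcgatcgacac
CR43643 and CR43644, chr3R:26020741-26020793, 1040 bp from E(spl)m3-HLH: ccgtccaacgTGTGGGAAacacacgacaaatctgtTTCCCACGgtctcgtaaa

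The promoter windows of 250 bases before and 50 bases after the 5′ end held at least 1 of the 4 forms in 19 of 249 members (7.63%), against 600 of all 18164 genes (3.30%). Among members with a reproducible Su(H) peak over the 5′ end it was 8 of 86 (9.30%), against 12 of 206 coding genes with such a peak (5.83%). It was 5 of 73 members without a reproducible Su(H) peak (6.85%), and 105 of all 2447 lncRNA and asRNA genes (4.29%). CR43306 held 2 forms, both read from the minus strand and starting 185 and 89 bases before the 5′ end, and had Ey scores of 6.34 and 6.34, with Su(H) at 3.80 and 3.52. CR44529, a gene with Su(H) only, held 1 form and had 3.53 and 2.80 for Su(H). Both windows are shown as examples of a gene with both factors and a gene with Su(H) only whose start lay under a Su(H) peak, in the direction of the gene, from the RefSeq genome of dm6, with the forms in capitals.
CR43306, chr3L:18294354-18294653, plus strand: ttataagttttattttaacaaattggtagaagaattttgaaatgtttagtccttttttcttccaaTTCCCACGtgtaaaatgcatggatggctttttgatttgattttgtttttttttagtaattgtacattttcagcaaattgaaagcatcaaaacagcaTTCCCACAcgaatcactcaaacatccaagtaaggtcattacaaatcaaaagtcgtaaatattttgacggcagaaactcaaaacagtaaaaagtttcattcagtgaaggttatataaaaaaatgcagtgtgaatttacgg
CR44529, chr3L:4168797-4169096, minus strand: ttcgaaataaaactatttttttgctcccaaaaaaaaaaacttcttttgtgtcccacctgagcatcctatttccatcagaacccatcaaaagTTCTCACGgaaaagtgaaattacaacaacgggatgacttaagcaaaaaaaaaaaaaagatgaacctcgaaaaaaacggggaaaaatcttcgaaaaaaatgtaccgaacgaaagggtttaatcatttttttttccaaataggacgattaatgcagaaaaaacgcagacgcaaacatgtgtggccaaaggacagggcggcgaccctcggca

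MicroRNA genes were overlapped by 12 members, which together held 16 of them. The mature strand carries a seed, bases 2 to 8, that pairs with target messages. Mature sequences were read from the RefSeq annotation of Release 6, as DNA letters with the seed in capitals, for the members whose peaks are described next. The 3p strands of mir-279 and mir-996 shared 1 seed, as did those of mir-2c, mir-13a and mir-13b-1.
bantam 3p in CR43334, chr3L:642259-642281, plus strand: tGAGATCAttttgaaagctgatt
mir-279 3p in CR31044, chr3R:29215651-29215672, plus strand: tGACTAGAtccacactcattaa
mir-996 3p in CR31044, chr3R:29217244-29217265, plus strand: tGACTAGAtttcatgctcgtct
mir-2c 3p in CR45911, chr3R:15417761-15417783, minus strand: tATCACAGccagctttgatgggc
mir-13a 3p in CR45911, chr3R:15417548-15417569, minus strand: tATCACAGccattttgatgagt
mir-13b-1 3p in CR45911, chr3R:15417412-15417433, minus strand: tATCACAGccattttgacgagt
mir-124 3p in CR45919, chr2L:17566426-17566448, plus strand: tAAGGCACgcggtgaatgccaag
mir-315 5p in CR45388, chr3L:18860982-18861003, plus strand: tTTTGATTgttgctcagaaagc
mir-282 5p in CR43626, chr3L:3251038-3251061, plus strand: tAGCCTCTactaggctttgtctgt

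Of the 16 hairpins, 3 lay wholly and 1 in part under a reproducible Ey peak, and 4 wholly under a reproducible Su(H) peak. CR43334 (chr3L:628435-643900) spans bantam, a microRNA that promotes growth and blocks cell death. It had Ey scores of 5.95 and 4.62 from a single peak, and best Su(H) scores of 3.89 and 3.50 from different peaks. It had 1 reproducible peak of Ey, before its 5′ end, and 3 of Su(H). One of these, chr3L:641546-642157, ended 51 bp before the bantam hairpin. No Su(H) peak at FDR 0.01 lay closer to the hairpin than 1979 bp in Su(H)-Dam replicate 2 and 3000 bp in Su(H)-Dam replicate 1.

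CR31044 spans mir-279 and mir-996, known for their part in the fate of sensory neurons, and had Ey scores of 6.18 and 4.41, with Su(H) at 3.85 and 2.41. Its reproducible Ey and Su(H) peaks covered the 5′ end and the mir-279 hairpin, and the mir-996 hairpin lay 1424 bp from both. The Su(H) peak of replicate 2 at FDR 0.01 was another one, 434 bp from the mir-279 hairpin. CR43626 spans mir-282, whose hairpin was under peaks of both factors, and had Ey scores of 5.08 and 5.55, with Su(H) at 3.34 and 3.21. In CR45388 the peaks of both factors covered the 5′ end, and the hairpin of mir-315, which acts on the Wingless pathway, lay 7999 bp away.

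The Su(H) only class had 3 members with microRNAs. CR45911, which spans mir-2c, mir-13a and mir-13b-1, of a family that represses proapoptotic genes, had 2.94 and 2.83 for Su(H) and Ey peaks at FDR 0.01 of 5.18 and 3.96. CR45919 spans mir-124, which is characteristic of neurons, and had no Su(H) peak at FDR 0.01 in either replicate but an Ey peak of 5.24 in Ey-Dam replicate 1. Its reproducible Su(H) peak stood 1281 bp from the mir-124 hairpin. CR31451, renamed mimi, overlaps mir-9381 at its 5′ end and had 3.58 and 2.51 for Su(H), and Ey peaks at FDR 0.01 of 4.26 and 3.82.

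Of the Ey only members, CR43857 spans mir-275 and had 5.56 and 4.36 for Ey, with the peak 2010 bp before the hairpin, and Su(H) peaks at FDR 0.01 of 2.97 and 2.31. CR44909 overlaps mir-288 and, on the other strand, mir-133, of whose 98 hairpin bases 40 lay under its Ey peak of 6.22 and 4.81. The same stretch had Su(H) peaks at FDR 0.01 of 3.23 and 2.55. CR46004, with mir-276b, had an Ey peak of 4.58 in Ey-Dam replicate 2 alone. CR43650, which spans mir-8, had 6.33 and 4.49 for Ey and 3.90 for Su(H) in replicate 1 alone, and CR44206, which spans mir-184, had Ey scores of 6.58 and 5.94, with Su(H) at 4.20 and 4.29. Both had peaks of both factors, and CR44206 had 3 of each, 1 of them over the mir-184 hairpin. The best Ey scores of CR44206 came from different peaks, and none of its best scores came from a peak over this hairpin. In the Ey lists the hairpin peak scored 5.80 and 5.08, above the list medians of 5.14 and 4.42. In the Su(H) lists it scored 3.14 and 2.79, below the list medians of 3.22 and 2.96.

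**Figure D5:**
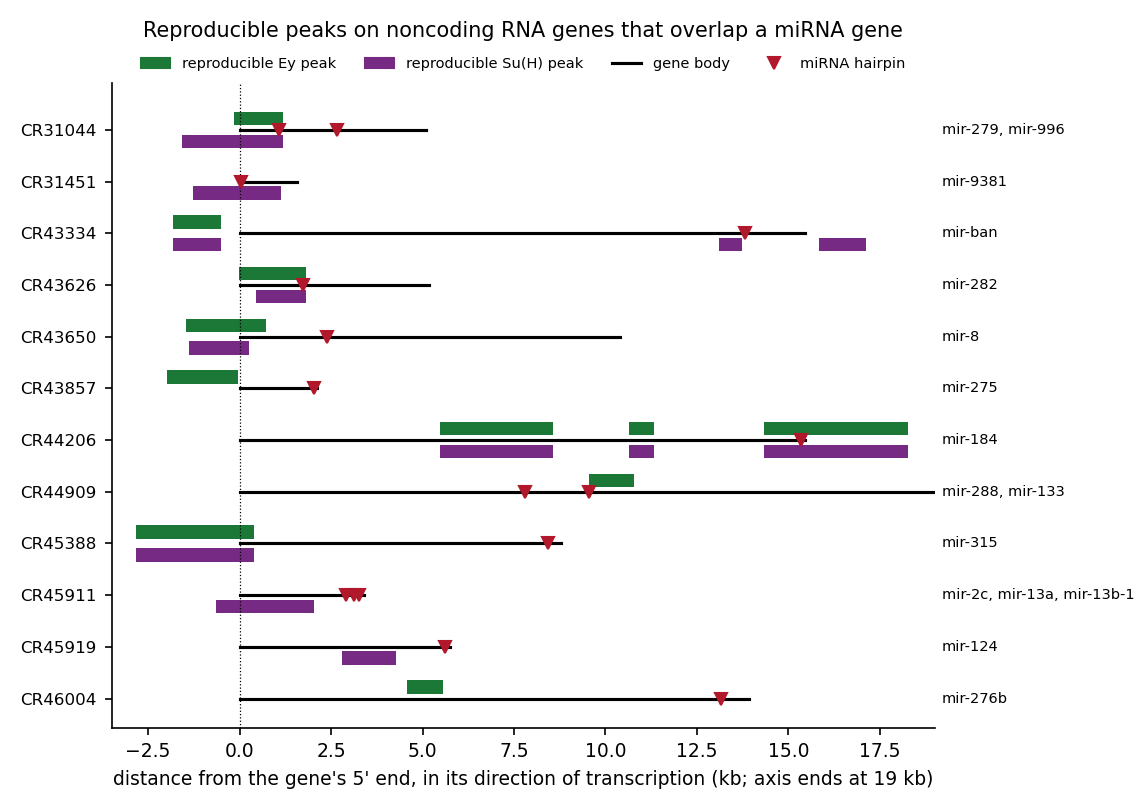
The 12 members that overlap microRNA genes, each drawn from its 5′ end (x axis, kb, cropped at 19 kb), with reproducible Ey peaks above and Su(H) peaks below the gene line and hairpins as triangles. The hairpins of mir-279, mir-282 and mir-184 lay under an Ey peak, and that of mir-133 in part. The peaks at the start of CR45388 lay 7999 bp from the mir-315 hairpin.

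The members nearest to the genes of the temporal factors Slp1 and Slp2, which follow Ey in the neuroblast series, are described next. CR44077, 7141 bp from slp1, had Ey scores of 5.78 and 5.67, with Su(H) at 3.48 and 3.49. The reproducible peaks of both factors at CR44077 cover the shorter of the slp enhancers that the paper identified. At FDR 0.01 the Ey-Dam replicate 1 peak of 5.78 (chr2L:3817606-3819392) begins past this enhancer. The peaks of Ey-Dam replicate 2 and of both Su(H)-Dam replicates cover it. CR44076, 9727 bp from slp1, stood by the same reproducible peaks, and the Ey-Dam replicate 1 peak of 5.78 lay 1658 bp from it. CR44983, 5945 bp from slp2, had a reproducible Ey peak alone, with 5.13 and 4.87, and Su(H) peaks at FDR 0.01 of 2.65 and 2.92. This Ey peak overlaps the fragment within which the paper placed its longer slp enhancer, but not that enhancer itself. The paper reports reproducible Ey and Su(H) peaks at both of its slp enhancers. CR45449, 15103 bp from slp2, had a reproducible Su(H) peak alone, with 3.48 and 3.22, and an Ey peak of 5.96 in replicate 1 alone. Another member stood by the same Su(H) peak.

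CR45576, 17345 bp from hth, the homeobox gene of young neuroblasts, had a reproducible Su(H) peak with 3.29 and 3.36, and Ey peaks at FDR 0.01 of 4.70 and 3.74. CR44018, antisense to hth over an exon, had reproducible peaks of both factors but none at FDR 0.01 in any library. Of 15 medulla temporal factor genes, 4 (B-H1, gcm, hth and slp2) neighboured a member or its peaks, and 10 had a reproducible peak of their own. Over all coding genes 328 of 13945 (2.35%) neighboured a member or its peaks, and these gene lists were chosen for the tissue with earlier results of these data known.

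Over all coding genes 1059 of 13945 (7.59%) had a reproducible peak, the background to the counts of list genes with a peak above and below. Among 30 neuroblast genes 10 neighboured members, 15 members in all, and 24 had a reproducible peak. The bHLH gene Oli and CG6870 had 5 members by their peaks, CR44410, CR44411, CR45111, CR45112 and CR45698. All but CR45698 stood by the same peaks and had Ey scores of 5.53 and 4.41, with Su(H) at 3.58 and 2.87, so they count as 1 binding region. CR45698 had the Ey peak of 5.53 in replicate 1, and the one of 4.41 in replicate 2 lay 4844 bp from it. CR45135, antisense to lola, a BTB transcription factor that keeps neurons differentiated, had Ey scores of 6.68 and 5.22, with Su(H) at 4.13 and 3.65. CR45695, 4095 bp from chinmo, a temporal gene of neuroblasts and neurons, had 5.24 and 4.65 for Ey and a single Su(H) peak of 2.65 in replicate 2.

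Among 34 genes of the Notch pathway and its targets 11 neighboured members, 12 members in all, and 20 had a reproducible peak. Outside the E(spl) complex, CR45243, 847 bp from fng, the glycosyltransferase that modifies Notch, had Ey scores of 5.85 and 5.93, with Su(H) at 3.66 and 4.04. CR43432, now named marge, lies by Ocho and Brd of the Bearded family and had 3.74 and 3.36 for Su(H), with no Ey peak in either replicate closer than 1032 bp. Its Su(H) peak held 4 of the spelled-out forms, the most in any peak near a member, a number that the peaks of CR43258 and CR43306 also reached. CR43258 lies 3519 bp from Delta, which codes for the Notch ligand, and had 3.62 and 3.31 for Su(H) and no Ey peak. CR44175, 599 bp from Delta, had a reproducible Ey peak, over which the peaks at FDR 0.01 scored 5.51 and 5.11 but began 1886 and 1554 bp from the gene. The nearest Su(H) peaks at FDR 0.01, of 4.52 and 4.93, were also 1554 bp away.

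Of 24 cell cycle genes 4 (E2f1, Myc, pnut and trbl) neighboured members, and 11 had a reproducible peak. CR45973, by trbl, which slows the cycle by lowering String, had Ey scores of 5.71 and 4.81, with Su(H) at 3.82 and 3.28. CR44999, 149629 bp long and overlapping Myc among many genes, had 3.39 and 3.00 for Su(H), with the peak near CG12535 and not near Myc.

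Signaling and guidance genes also had members beside them, with 6 of 36 and 6 of 28 genes. CR44281, inside an intron of the Hedgehog receptor gene ptc, had 4.66 and 4.81 for Su(H) and an Ey peak of 3.63 in replicate 2, the nearest in replicate 1 being 1705 bp away. CR43751, 3208 bp from aop, the ETS repressor Yan, had Ey scores of 5.22 and 5.34, with Su(H) at 3.95 and 4.34. CR44373, in an intron of sli, which codes for the Robo ligand Slit, had 5.79 for Ey in replicate 2 and 4.22 and 4.08 for Su(H). Its reproducible Ey peak had a peak of 6.31 in Ey-Dam replicate 1 too, 1205 bp from the gene. CR44306, in an intron of otk, which codes for a receptor-like pseudokinase, had 5.43 and 4.65 for Ey and no Su(H) peak. CR44764, 629 bp from robo1, the gene of the Slit receptor, had 3.58 and 3.42 for Su(H) and no Ey peak. The coding gene within 1000 bp of the reproducible peak with these Su(H) scores was Ppa and not robo1. CR45025, in an intron of the Wingless receptor gene fz, had Ey scores of 4.87 and 4.89, with Su(H) at 3.39 and 3.12.

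Of 30 genes listed as homeobox genes 2 (caup and hth) neighboured members. B-H1 was listed with the temporal factors instead, and the POU gene nub with the neuroblast genes. CR32111, 6136 bp from caup, an Iroquois gene, had Ey scores of 5.34 and 5.77 from a single peak. Its best Su(H) scores, 3.48 and 2.98, each came from another peak. By CG15599 stood 4 members, CR43132, CR45523, CR45524 and CR45526, which shared 1 Su(H) score of 3.72 and 3.06. No member neighboured any of 24 neuron genes, 8 glia genes or 12 ecdysone response genes, of which 7, 5 and 4 had a reproducible peak of their own. The glial gene gcm was listed with the temporal factors and is not among these glia genes. Nothing is read from these lists without members, since only 2.35% of all coding genes neighboured a member or its peaks.

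The member with most peaks was CR44357 (chrX:7166451-7405797, minus strand), 239347 bp long, with 9 reproducible Ey and 10 reproducible Su(H) peaks and best Ey scores of 6.79 and 5.69, with Su(H) at 4.81 and 4.76. CR32773, 223710 bp long, had 2 reproducible peaks of Ey and 3 of Su(H), with bi, the T-box gene optomotor-blind, as the coding gene by them. In these long genes a peak within 1000 bp can lie far from the 5′ end, which no reproducible peak covered in either.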

How the data were processed

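The 6 libraries were placed by their labels in groups of 2. Per the submitters' processing notes and the study's methods, Bowtie2 placed the reads on dm6, and damidseq_pipeline gave the log2 ratio over Dam alone in each GATC fragment. The lists the authors deposited hold find_peaks calls with a score per peak: each replicate at FDR 0.01, and reproducible peaks called at FDR 0.1 that passed an IDR of 0.05, whose IDR score was not used. Depth per library is not in these lists, so no counting interval was given. Here each peak boundary was checked to lie at a GATC site, and genes were taken from the Ensembl annotation on 6 arms without transposon insertions. Gene and peak were paired within 1000 bp, and the highest-scored peak within that distance gave a member's score. No statistical test was made. The alternatives changed the distance, the replicate lists, the overlap, the 5′ end and the score limit of the reproducible peaks. The distances and site search were tested on simulated data. The members, gene lists and alternatives were chosen with earlier results of these data known. Named genes were the 6 members with the highest mean percentile of score in each class, members by genes of the lists (at most 6 a list) or by slp1 and slp2, those with microRNAs, in 2 lists, with most peaks or longest, by the coding genes with most members, and at the distance limit, of which a selection is described. CR42848, CR43258, CR43306, CR44175, CR44529, CR45040 and CR45224 were added after their values were seen. The 3 deposited lists of overlapping peaks were not used. List names that differ from the annotation were matched to current symbols. The software was matplotlib 3.10.9, scipy 1.17.1, pandas 2.3.3 and numpy 2.4.6 under Python 3.11.15.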

Additional observations from a re-analysis of the deposited data

How the results depend on the processing

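Of 29 alternative settings over 6 counts, 24 gave a count within 1.5 times the reported one. With only the reproducible peaks whose mean replicate score reached the median, a peak of Ey was left near 99 members, of Su(H) near 96 and of both near 54, which follows from the smaller lists. With a peak required to overlap the gene, Su(H) was left at 116 members and both factors at 80. With the FDR 0.01 list of 1 replicate alone, the counts ranged from 181 to 193 for Ey, 180 to 184 for Su(H), 142 to 153 for both factors, 140 to 149 for overlapping peaks, 125 to 126 for members whose peaks all lay near a coding gene and 114 to 115 for peaks over the 5′ end. No paired analysis was possible because no result comes from a test. With 2 replicates and no depth in the lists, a missing peak in 1 library does not show that the factor was absent there.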
